A study of Mus musculus with 2 samples.

Results

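A set of 10 genes of lipid droplet storage and lipolysis was examined in fast and slow muscle fibres of the mouse. They were 4 perilipins, Plin2, Plin3, Plin4 and Plin5, the lipolysis genes Pnpla2, Abhd5, Lipe and Mgll, and the acyltransferases Dgat1 and Dgat2. Plin1, also a perilipin, was not a member and is read below with the adipocyte markers. Members were chosen by name, with earlier results of these data known, and their probes by the RefSeq accession that the array files give for each probe. All 10 had a probe, 14 probes in all, among 23458 genes with a matched probe. Every one of the 14 probes was well above background on both arrays, so all 10 genes passed the filter on dim signals in both groups.

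Muscle fibres keep triacylglycerol, a neutral fat, in lipid droplets that often lie beside mitochondria. Perilipins coat the droplet surface and govern access of lipases. The stored fat is made by acyltransferases, the last of which are DGAT1 and DGAT2, and is broken down in order by ATGL (gene Pnpla2), hormone-sensitive lipase (Lipe) and monoacylglycerol lipase (Mgll). Oxidative fibres are known to hold more droplets than glycolytic fibres.

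The study compared RNA of single fibres pooled by type on 2 one-colour arrays, with 1 pool and 1 array per group. Mice were 8 males aged 6 to 8 weeks, heterozygous for a GFP-Myh7 allele (G/+), which labels fibres that make slow myosin, so both pools carried this allele. The fast pool held 4447 fibres without GFP from the extensor digitorum longus (EDL), and the slow pool 1659 GFP-positive fibres from the soleus. For the slow pool the source label and the protocol give the soleus, used here, although its tissue field reads EDL. Muscle of origin and fibre type cannot be told apart, and pooling removed the spread between mice and between fibres.

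Myh7, the slow myosin heavy chain, had a signal of 1094 in fast fibres and 316863 in slow ones, and Myh4, the type IIB chain, 160781 and 57.9. The markers thus sided with the labels of both pools. Of the spots, 52.3% on the fast and 50.9% on the slow array were well above background, and none was saturated. There are no replicates, so no p-value is given and no difference has a replicate check. A size rule of 2-fold takes the place of a test. The error given with a signal or difference is the scanner software's own, which comes to 0.20 on the log2 scale for a typical difference. Spots of 1 probe printed repeatedly differed less, with a median SD of 0.05 for a log2 difference over 291 such probes. Neither error covers animals, dissection or labelling.

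All 10 genes had a higher value in the slow pool, and 5 passed 2-fold, namely Dgat2, Plin5, Plin3, Mgll and Lipe. Dgat2 stood 10.02-fold higher, Plin5 4.97-fold, Plin3 3.97-fold, Mgll 3.04-fold and Lipe 2.10-fold. Pnpla2, Plin2, Plin4 and Abhd5 lay between 1.49-fold and 1.83-fold, and Dgat1 was at 1.05-fold. Among all 14646 genes well above background on at least 1 array, 10.7% passed 2-fold on the slow side and 14.2% on the fast side. Among the 12852 genes well above background on both arrays, 53.2% had a difference above 0. No member passed 2-fold on the fast side. At a looser rule of 1.5-fold, 8 members passed on the slow side and 0 on the fast side, beside 21.2% and 23% of all genes. Folds were taken after each array was scaled to its own 75th percentile in log2 units, and each log2 difference below is slow minus fast on that scale.

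**Figure D1:**
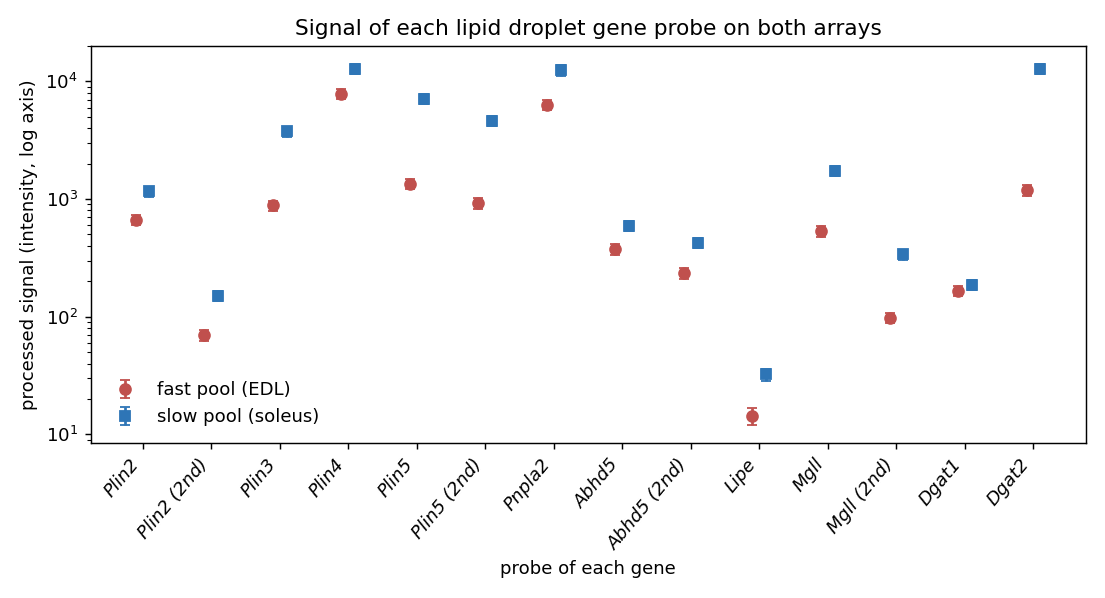
Processed signal of the 14 probes (log axis, unscaled intensity) on the fast array (red circles) and the slow array (blue squares), with the software error as bars. The slow value lies above the fast value for every probe, with the widest gap at Dgat2 and the narrowest at Dgat1.

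The perilipins split into a pair that differed strongly and a pair that differed less. Plin5, the perilipin of oxidative tissues that tethers droplets to mitochondria, had a signal of 1345 ± 135 (software error) in fast fibres and 7154 ± 715 in slow ones. The log2 difference was 2.31 ± 0.20. Its second probe read 920.0 ± 92.0 and 4608 ± 461, a log2 difference of 2.23, so both probes placed the slow pool well above the fast pool. Of the genes measured on both arrays, 98.1% had a lower difference than Plin5, given as a description only.

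Plin3, a broadly expressed perilipin that moves from the cytosol to newly formed droplets, read 882 ± 88.2 in fast fibres and 3752 ± 375 in slow ones. The log2 difference was 1.99 ± 0.20 by its only probe. Plin2, the coat protein whose protein level follows the amount of stored fat in many cells, read 665 ± 66.6 and 1162 ± 116. The difference was 0.71 ± 0.20, under 2-fold. The second Plin2 probe, a dimmer one at 69.9 ± 7.19 and 150 ± 15.1, gave 1.001, at the 2-fold line, so the Plin2 call depends on the probe.

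Plin4, a perilipin abundant in adipocytes and muscle, read 7829 ± 783 in fast fibres and 12789 ± 1279 in slow ones. Its log2 difference of 0.61 ± 0.20 was larger than its error and under 2-fold. The difference of Plin5 was larger than that of Plin4 by 1.70 ± 0.29 and larger than that of Plin2 by 1.61 ± 0.29. Both gaps kept their direction under all 13 settings of scaling, background and probe choice, at 1.66 to 1.76 and 1.42 to 1.62. A constant scaling of an array cannot alter such a gap. Only the quantile, loess and normexp settings and the rule for genes with several probes could move it. The coat genes thus differed between the pools by unequal amounts.

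Plin3, Plin4 and Plin5 all lie on chromosome 17, where the RefSeq table (assembly GRCm38.p6) places Plin4 and Plin5 side by side and 7 protein-coding genes between Plin5 and Plin3. One window around a start site is shown for each of the 4 perilipins, 250 bases before to 50 after, because these genes differ in the same direction but by unlike amounts. Plin5 has a second, overlapping window, which is not printed. The windows come from RefSeq, build GRCm38.p6. Capitals mark CCAAT, the E-box CACGTG and the nuclear receptor half-site AGGTCA, each on either strand.
Plin5, chr17:56117499-56117798, minus strand: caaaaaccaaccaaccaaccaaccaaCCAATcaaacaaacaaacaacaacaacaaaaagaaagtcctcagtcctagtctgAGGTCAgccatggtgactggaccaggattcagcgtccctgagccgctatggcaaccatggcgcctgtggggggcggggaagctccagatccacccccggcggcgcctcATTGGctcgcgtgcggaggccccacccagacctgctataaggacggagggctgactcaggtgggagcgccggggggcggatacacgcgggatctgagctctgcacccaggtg
Plin3, chr17:56290462-56290761, minus strand: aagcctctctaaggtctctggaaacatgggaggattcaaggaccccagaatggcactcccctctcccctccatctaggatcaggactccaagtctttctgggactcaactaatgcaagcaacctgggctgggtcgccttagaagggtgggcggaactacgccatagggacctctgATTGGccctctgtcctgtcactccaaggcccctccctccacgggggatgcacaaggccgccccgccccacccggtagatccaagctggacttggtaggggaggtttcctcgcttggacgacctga
Plin4, chr17:56109733-56110032, minus strand: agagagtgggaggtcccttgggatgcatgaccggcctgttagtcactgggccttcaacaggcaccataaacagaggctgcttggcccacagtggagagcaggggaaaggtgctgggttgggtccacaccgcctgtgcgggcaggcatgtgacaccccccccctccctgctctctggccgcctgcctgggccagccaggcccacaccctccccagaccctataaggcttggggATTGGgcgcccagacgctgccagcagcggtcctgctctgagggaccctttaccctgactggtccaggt
Plin2, chr4:86670010-86670309, minus strand: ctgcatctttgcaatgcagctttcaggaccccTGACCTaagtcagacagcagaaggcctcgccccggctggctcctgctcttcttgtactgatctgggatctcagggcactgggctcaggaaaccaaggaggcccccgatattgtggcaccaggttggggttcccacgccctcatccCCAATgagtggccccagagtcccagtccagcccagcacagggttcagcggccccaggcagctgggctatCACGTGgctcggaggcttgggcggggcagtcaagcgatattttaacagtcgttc

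The table held 11 windows for 8 of the 10 genes, all but Dgat1 and Dgat2. A CCAAT or its reverse ATTGG was in 4 of the 11 windows, against 37.4% of the 32851 windows in the table. These 4 were the printed ones. The second Plin5 window and the windows of Mgll, Lipe, Pnpla2 and Abhd5 had neither, so over all members the motif was about as frequent as in the table. The half-site AGGTCA was found for Plin2, Plin5 and Abhd5, against 16.3% of all windows, and CACGTG for Plin2, Mgll and Lipe, against 7.15%. The direct repeat of AGGTCA with 1 base between the copies, a PPAR-type element, was in 0 of the 11 windows and in 0.0396% of all windows. The extended half-site TCAAGGTCA, which contains AGGTCA, was in 0 of the 11 and in 0.423% of all windows. The scan also covered the GC box, found in 9 of the 11 windows against 35.7% of all windows. The TATA box, the cyclic AMP response element and the MEF2 site were each in 0 of the 11. All of these are letter matches in short windows and say nothing about binding. The GC content of the printed windows was 60.3% for Plin5, 59.3% for Plin3, 65.0% for Plin4 and 60.7% for Plin2, against a median of 52.7% over the table.

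Among the lipolysis genes, Mgll and Lipe passed 2-fold, and Pnpla2 and Abhd5 did not. Pnpla2 encodes ATGL, which removes the first fatty acid from triacylglycerol. Its signal was 6346 ± 635 in fast fibres and 12440 ± 1244 in slow ones, a log2 difference of 0.87 ± 0.20. Abhd5 encodes CGI-58, the coactivator of ATGL that perilipins hold back until lipolysis is called for. It read 375 ± 37.5 and 596 ± 59.6, a difference of 0.57 ± 0.20, and 0.76 by its second probe. Lipase and coactivator were both higher in the slow pool by less than 2-fold, and the difference of Abhd5 minus that of Pnpla2 was -0.30 ± 0.29.

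Lipe encodes hormone-sensitive lipase, which acts on diacylglycerol. It was the dimmest member, at 14.4 ± 2.26 in fast fibres and 32.3 ± 3.83 in slow ones, where the lowest signals well above background were 7.21 and 8.81. The log2 difference of 1.07 ± 0.28 was past 2-fold by less than its error. With normexp background correction, which adds an offset of 50 to each signal, it was 0.34 after quantile and 0.28 after 75th percentile scaling, and in the authors' deposited table it was 0.96, so the Lipe call depends on both background correction and scaling. Mgll encodes the lipase that frees the last fatty acid and also breaks down the endocannabinoid 2-arachidonoylglycerol. It read 532 ± 53.2 and 1731 ± 173, a difference of 1.60 ± 0.20, with 1.69 by its second probe. The difference of Mgll was larger than that of Pnpla2 by 0.73 ± 0.29, whereas that of Lipe exceeded it by only 0.20 ± 0.35 and stood below it, at -0.61, with normexp and 75th percentile scaling.

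The 2 enzymes of the last step of triacylglycerol synthesis went apart. Dgat1 encodes an acyltransferase of the endoplasmic reticulum that mainly re-esterifies incoming fatty acids. Its signal was 167 ± 16.8 in fast fibres and 187 ± 18.9 in slow ones. The log2 difference of 0.07 ± 0.21 was smaller than its error, and it was -0.04 in the authors' deposited table. Dgat2 encodes an unrelated enzyme with the same activity that can also sit at the droplet surface. It read 1190 ± 119 and 12767 ± 1277, a log2 difference of 3.32 ± 0.20, and 99.2% of genes measured on both arrays had a lower one.

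The difference of Dgat2 relative to that of Dgat1, which no constant scaling of an array can alter, was 9.54-fold, or 3.25 ± 0.29 on the log2 scale. Under the 13 settings it ran from 3.105 to 3.25. The difference of Dgat2 was also larger than that of Pnpla2, by 2.45 ± 0.29. Each of the 2 Dgat genes rests on 1 probe, and levels of different probes are not compared here.

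**Figure D2:**
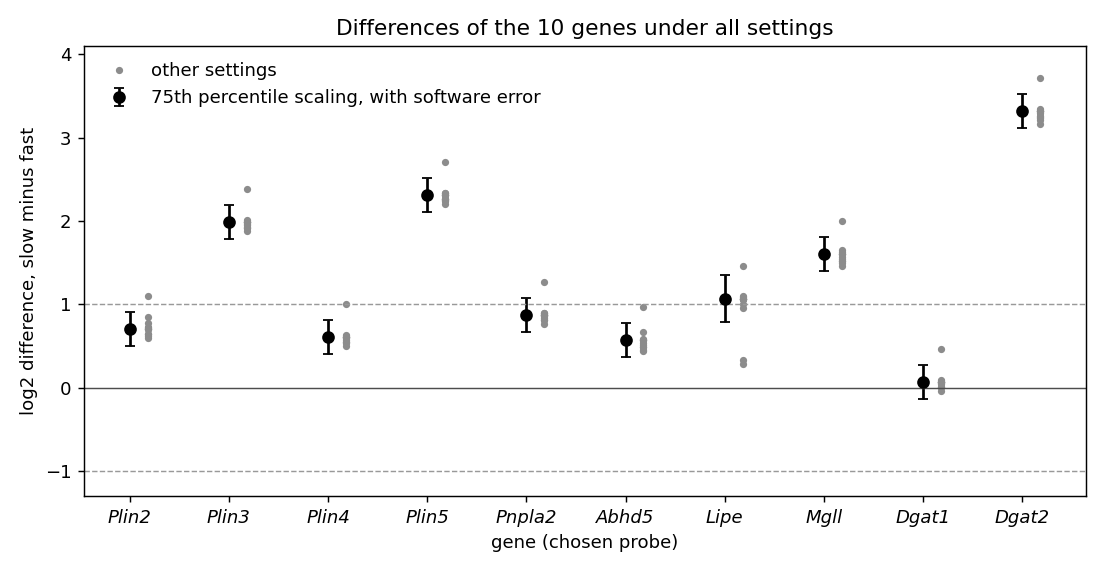
Log2 difference, slow minus fast, of the chosen probe of each gene (black, bars are the software error) and under the 12 other settings (grey); dashed lines mark 2-fold. Dgat2, Plin5, Plin3 and Mgll stay past 2-fold under all 13 settings, Lipe drops to 0.28 at the lowest, and Dgat1 lies around 0.

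Over the 10 genes the median log2 difference was 0.97, or 1.96-fold, with an SD over genes of 0.99, beside a median of 0.05 over all genes measured on both arrays. Scaling to spike-in controls raised the median of all genes by 0.40, and the authors' table lowered it by 0.11. Members past 2-fold in slow fibres numbered 8 with spike-in scaling, which added Plin2, Plin4 and Pnpla2, and 4 in the authors' table. In either, 0 were past 2-fold in fast fibres. The count over all genes moved the same way, from 1562 on the slow side to 3003 with spike-in scaling and 1357 in the authors' table. The member counts thus followed the shift of all genes. For 9 members the difference exceeded its software error, and for 4 it was past 2-fold by more than that error. Because that error is nearly the same for all members but the dim Lipe, these counts mainly restate the size of the differences. In bulk pools, more RNA of a gene per fibre and more fibres that make it cannot be told apart.

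The rest of the pathway was mixed. Over 6 lists of related genes, 100 of 113 were well above background on at least 1 array, of which 17 passed 2-fold on the slow side and 17 on the fast side. The called genes thus split evenly, with 24 and 12 under spike-in scaling and 12 and 20 in the authors' table. Among all genes tested the shares past 2-fold were 10.7% and 14.2%.

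Other droplet coat and assembly genes held 3 of 17 measured genes past 2-fold on the slow side and 1 on the fast side, with a median of 0.20. Cidea, a droplet protein that promotes transfer of fat between droplets and is best known from brown fat, read 118 in fast fibres and 1682 in slow ones. It was 13.4-fold higher in slow fibres. Tmem159, which encodes a partner of seipin at sites of droplet formation, read 450 and 4129 and was 8.57-fold higher, with a log2 difference of 3.34 by its second probe. Cideb, a relative of Cidea, was 2.33-fold higher by its brighter probe, but its other probe gave -0.82. Hsd17b11, a dehydrogenase found on droplets, was 4.67-fold higher in fast fibres, and at -0.99 with normexp and quantile normalization. Bscl2, which encodes seipin, stood at -0.04 and turned to 0.36 under spike-in scaling.

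Of the other lipases and inhibitors, 3 of 14 passed 2-fold on the slow side and 2 on the fast side, with a median of 0.18, or 0.07 with a gene at its bound, and with 2 and 4 genes in the authors' table. The inhibitors of ATGL went apart. G0s2 read 277 in fast fibres and 934 in slow ones, 3.15-fold higher in slow fibres. Hilpda, a hypoxia-induced inhibitor, read 3897 and 1117, 3.73-fold higher in fast fibres. Relative to Pnpla2, the difference of G0s2 was higher by 0.78 ± 0.29 and that of Hilpda lower, at -2.77 ± 0.29. Both directions held under all 13 settings, of which only the quantile, loess and normexp ones could move them.

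Further lipases differed too. Ces2c, a carboxylesterase, was 6.76-fold higher in slow fibres. Abhd6, a monoacylglycerol hydrolase, was 2.16-fold higher, with 0.63 by its other probe and 0.56 with normexp and quantile normalization. Faah, the amidase of the endocannabinoid anandamide, was 14.7-fold higher in fast fibres, at 170 against 12.4, and its log2 difference of -3.88 shrank to -1.84 with that background correction. The genes for breakdown of both endocannabinoids, Mgll and Faah, therefore lay on opposite sides.

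Upstream steps of triacylglycerol synthesis held 5 of 24 genes past 2-fold on the slow side and 6 on the fast side. The split was 6 and 4 under spike-in scaling, 3 and 6 with the percentile taken over probes detected on both arrays, and 2 and 7 in the authors' table. The median was 0.34 over the 21 genes measured on both arrays and -0.12 with bounds. Agpat2, which makes phosphatidic acid, was 6.85-fold higher in slow fibres with 2.91 by its second probe, while Agpat3, of the same family, was 2.13-fold higher, with a log2 value of 0.98 at the lowest setting. Gk, the glycerol kinase, was 2.57-fold higher by 1 probe, with 0.39 by the other. Higher in fast fibres were Gpd1, the source of glycerol 3-phosphate from glycolysis, by 24.9-fold, Agpat4 by 4.31-fold and the desaturase gene Scd1 by at least 3.87-fold. Under normexp with quantile normalization Agpat4 was at -0.93, Scd1 at -0.44 and Gk at 0.66. The second Agpat4 probe was at background on both arrays.

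Among genes of hormonal control of lipolysis, 4 of 19 passed 2-fold on the slow side and 3 on the fast side, 6 and 1 under spike-in scaling, with a median of 0.07, within the shift that scaling alone gives. Prkar2b, a regulatory subunit of protein kinase A, was 11.3-fold higher in slow fibres, from a fast signal of only 8.12, and at 1.29 with normexp and quantile normalization. Prkg1, the cyclic GMP kinase, was 7.06-fold higher, with 2.36 by its second probe. Pde3b, a phosphodiesterase that lowers cyclic AMP after insulin, was 2.22-fold higher, and 0.48 with that correction. The second probes of Pde3b and Prkar1b were at background on both arrays, so each value rests on 1 probe. Prkar1b was at least 8.75-fold, Pde4d 2.30-fold and Irs2, an insulin receptor substrate, 2.05-fold higher in fast fibres. The other 3 Pde4d probes gave -0.98, -1.38 and -0.65, and Irs2 was at -0.64 under spike-in scaling. Pde4d was also under 2-fold at -0.95 with normexp and quantile normalization and at -0.80 under spike-in scaling, and Prkar1b stood at -1.09 with the former. The receptor genes Adrb1 and Adrb3 were at background on both arrays.

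Of 17 regulators, 1 passed 2-fold on the slow side and 2 on the fast side, and 2 and 1 under spike-in scaling, with a median of -0.42. Ppara, the nuclear receptor that drives fatty acid use and targets several droplet genes, read 573 in fast fibres and 3829 in slow ones, 6.25-fold higher, with 2.38 by its second probe. Its partner receptor gene Rxrg was 3.07-fold higher in fast fibres, and Srebf1, a regulator of lipid synthesis, 2.10-fold. Srebf1 was at -0.68 under spike-in scaling. Among the receptors of the same family as Ppara, Ppard was at -0.42 and Pparg at -0.23, the latter turning to 0.17 under spike-in scaling.

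**Figure D3:**
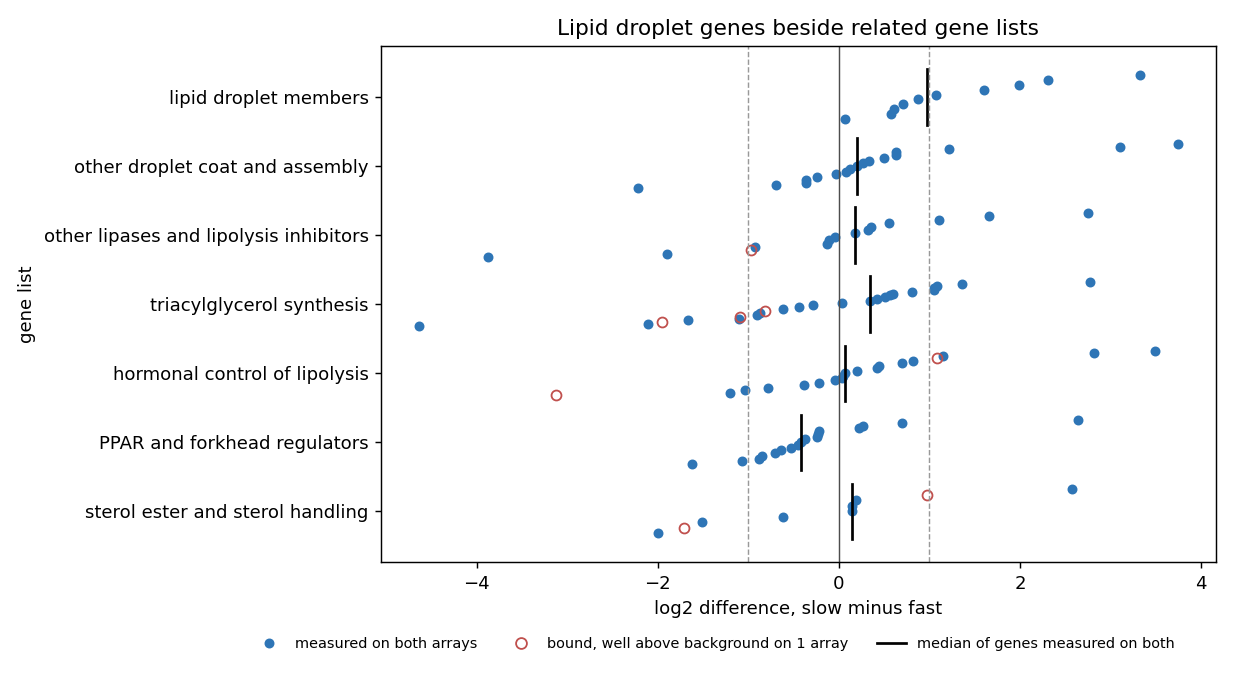
Log2 differences, slow minus fast, of the 10 genes (top row) and of 6 lists of related genes; filled points were measured on both arrays, open points are bounds, black bars are medians and dashed lines mark 2-fold. All 10 droplet genes lie right of 0, whereas each related list has genes on both sides. Members and lists were divided with earlier results of these data known, so this contrast depends on that division.

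Droplet genes are strong in adipocytes, so adipocyte markers were read beside them. Of 12 markers, 7 stayed at background on both arrays, namely Adipoq, Plin1, Cidec, Pck1, Ucp1, Retn and Adrb3. Adipoq read 1.75 in fast fibres and 3.32 in slow ones, and Plin1, the adipocyte perilipin, 1.90 and 6.82. The 5 others were Cidea with the value above, Lep at 0.21 (-0.01 at the lowest setting), Fabp4 higher on the fast side by 2.29-fold, Thrsp by 3.22-fold and Cfd by at least 1.66-fold. Cidea, Plin1 and Cidec also belong to the coat list, and Adrb3 to the hormonal list. The signal summed over the adipocyte list was 4640 in fast fibres and 3686 in slow ones. Nearly all of it came from Fabp4 (3299 and 1540), Thrsp (1144 and 381) and Cidea (118 and 1682).

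For most other cell types of muscle the marker median was below 0, the opposite sign to the droplet genes. Of 12 endothelial markers, 10 passed 2-fold on the fast side, with a median of -1.44 and a summed signal of 5205 against 1491. Of 12 fibroblast markers it was 10, with a median of -1.79 (-1.88 with bounds) and sums of 31640 and 8465. All 6 measured erythrocyte markers passed 2-fold on the fast side (median -1.43, sums 19406 and 7573). Immune markers (4 of 9) had a median of -0.48, or -0.91 with bounds, and sums of 5603 and 4128, of which Itgam alone gave 2528 and 3167. Smooth muscle and pericyte markers (4 of 10) stood at -0.79, with 144868 and 139984. Acta2 alone gave 139689 and 136890 of these sums, so they say little about the other markers of that list. The sums are unscaled signals. Schwann cell markers (4 of 8) had a median of -0.57 and sums of 1702 and 3821, of which Pmp22 alone gave 3423 in slow fibres. Tendon markers (4 of 7) had -1.33, with 3809 and 4951, of which Scx alone gave 3659 in slow fibres. Itgam, Acta2, Pmp22, Scx and Itga7 are named here after their values were seen. Satellite cell markers (2 of 5) had 0.14, with 8915 and 9495, of which Itga7 alone gave 6698 and 7884. Over the 9 lists, 46 of 74 measured markers passed 2-fold on the fast side and 5 on the slow side, the latter being 2 for Schwann cells and 1 each for adipocytes, smooth muscle and tendon. Under spike-in scaling the slow and fast counts were 1 and 1 for both smooth muscle and adipocyte markers, and 1 and 2 for satellite cell markers. With the median over the probes of a gene they were 1 and 5 for Schwann cell markers. The part of these cells in the droplet gene values was not tested.

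**Figure D4:**
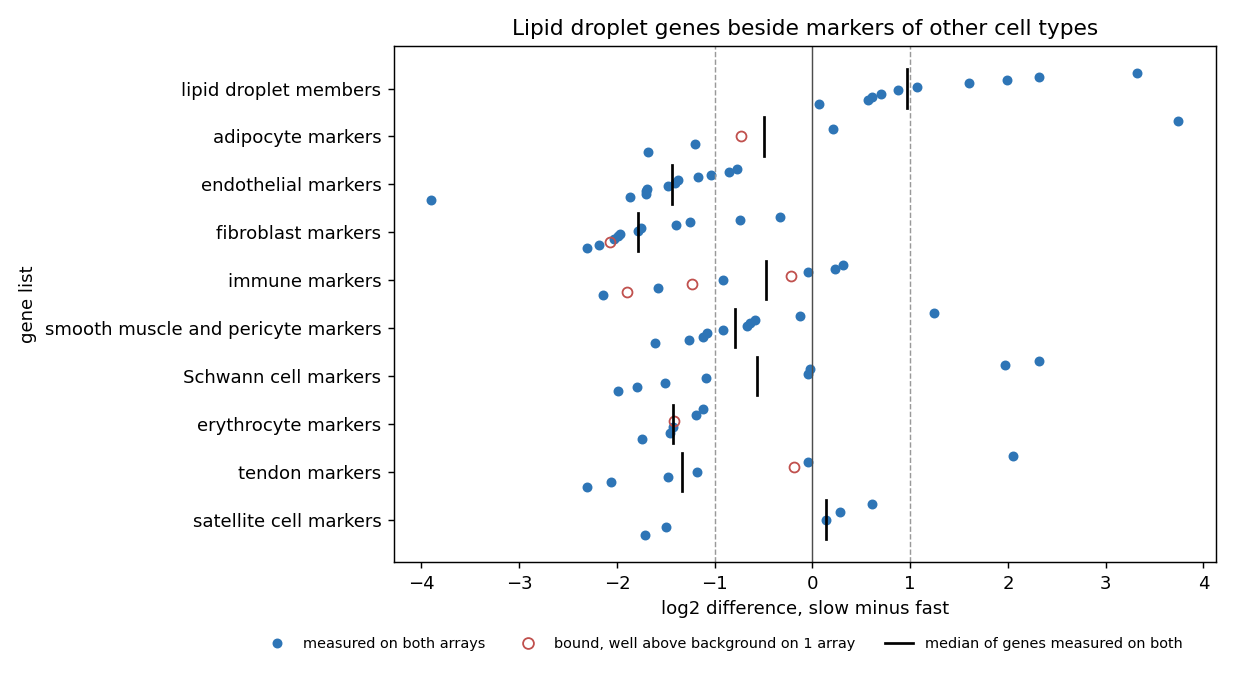
Log2 differences, slow minus fast, of the 10 droplet genes (top row) and of 9 lists of markers of other cell types, drawn as filled points (measured on both arrays) or open points (bounds), with medians as black bars. Most marker medians lie left of 0, at -1.44 for endothelial and -1.79 for fibroblast markers, and that of the droplet genes at 0.97.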

How the data were processed

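Total RNA of each pool was labelled with Cy3 from 0.1 µg and hybridised to 1 array, per the labels' protocols. The deposited scanner files hold linear intensities, background-subtracted and detrended within each array by version 12.0.3.1 of Agilent Feature Extraction, which the deposited file headers name, without normalization between arrays. The authors' deposited value table holds intensities equal to these times 2.83 (fast) and 2.45 (slow), with column medians of 30.1 and 27.1; it is linear and not centred, and what the factors scale to is not given in the sources used here.

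Control spots were dropped, as were 159 outlier spots, leaving 56596 probes, of which 33763 matched a gene of the RefSeq table (GRCm38.p6, names only, since the array design refers to mm9). Log2 signals were scaled to each array's 75th percentile over spots. The brightest probe well above background on at least 1 array stood for a gene. Where only 1 array detected a gene, the fold is a bound, taken against the dim array's own value or its lowest detected signal, whichever is higher. Named genes are all members, Myh7, Myh4, the adipocyte markers and, in each related list, the 3 highest and 3 lowest past 2-fold; other names, such as Bscl2, Adrb1, Ppard and Pparg, were chosen after their values were seen, and some genes of these lists are not reported here. The members and lists were chosen with earlier results of these data known. Alternatives changed scaling, background correction (normexp in limma 3.58.1, on median spot and background intensity), source table, probe rule, dim filter, outlier spots and size rule. The calculation was tested on simulated data, made from the fast array with large changes put into bright genes only. That check could not cover dim probes, bounds, background correction or calls near 2-fold.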

Additional observations from a re-analysis of the deposited data

How the results depend on the processing

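With 1 array per group, no setting tests variation between animals, and the software error was larger for the dim probe of Lipe than for the other members. Over the 12 alternatives, Plin3, Plin5, Mgll and Dgat2 kept their 2-fold call, at 1.88 to 2.39, 2.20 to 2.71, 1.46 to 2.001 and 3.16 to 3.72. Of the 120 values of single members, 113 kept direction and side of 2-fold, but part of these could hardly change. Dropping the dim filter or using the positive-and-significant flag left every member at its main value, since all member probes were well above background on both arrays. Keeping outlier spots only shifted all members by a small constant, and the probe rule cannot move a gene with 1 probe. Spike-in scaling took Plin2 to 1.10, Plin4 to 1.01 and Pnpla2 to 1.27, members past 2-fold from 5 to 8, and their median to 1.37. Lipe fell under 2-fold with normexp and in the authors' table, where Dgat1 turned to -0.0422; the sign change follows from the constant factor of that table. The 1.5-fold rule gave 8 members.

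Related genes past 2-fold (17 slow, 17 fast) numbered 11 and 9 with normexp and quantile normalization, 11 and 10 with normexp and the 75th percentile, and 25 and 30 at 1.5-fold. Markers of other cell types (5 slow, 46 fast) numbered 3 and 28, and 3 and 29, with these. All genes past 2-fold (1562 slow, 2080 fast, 42.9% slow) numbered 3003 and 1339 (69.2%) under spike-in scaling, 774 and 985, and 787 and 989, with normexp, and 3099 and 3368 at 1.5-fold. They numbered 2486 and 3076 with no dim filter, and 2482 and 3071 with the positive-and-significant flag. Apart from the arithmetic of the scale, size and filter rules, the cause of these shifts was not tested. No paired analysis was possible because each group has 1 sample.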

Other observations

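Genes of sterol esters, the other neutral lipid of droplets, were mixed. Of 9 above background, 1 passed 2-fold on the slow side and 3 on the fast side, or 2 and 3 under spike-in or loess scaling. Nceh1, a hydrolase of neutral cholesterol esters, read 372 in fast fibres and 2374 in slow ones, 5.96-fold higher in slow fibres. Scarb1, a lipoprotein receptor gene, was 2.85-fold higher in fast fibres. Stard4, a sterol carrier, was at least 3.28-fold higher there, and with normexp and quantile normalization it stood at -0.41 and Scarb1 at -0.85. The second Stard4 probe was at background on both arrays. That of Scarb1, well above background on the fast array only, gave -0.82.

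The protein-coding neighbours of the 3 perilipin genes on chromosome 17 were read as well, a set chosen after the member values were seen. Hdgfl2, on the far side of Plin4, stood at 0.03 ± 0.20. Lrg1, on the far side of Plin5, stood at -1.03 ± 0.20. Ticam1, beside Plin3, stood at 0.74 ± 0.21, and Arrdc5, on its other side, was at background on both arrays.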
